A study of Mus musculus with 12 samples.

Results

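The genes described here encode the enzymes and transporters of glycolysis together with the hypoxia-inducible factor HIF-1α, its partner and a set of its induced genes, as measured in mouse cytotoxic T lymphocytes (CTL). Their names were listed from general knowledge, and each was matched by symbol to the probe sets of the array. Of 38 listed genes, 36 were measured, by 82 probe sets, beside 18193 genes of the whole array that had a probe set of their own. The annotation gave 35 of the 36 at least 1 probe set that names no other gene, whereas all 3 Gapdh probe sets also name 1 or more Gapdh-related loci, so the values under that name may include their signal. Gpi1 and Eno1 were not analysed here. A gene with several probe sets was represented by the one with the highest mean over the 12 arrays.

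Glycolysis splits glucose into pyruvate and yields ATP without oxygen, and proliferating CTL run it fast and release much of the pyruvate as lactate. HIF-1 is a dimer of an oxygen-sensitive α subunit and a stable β subunit, Arnt. In the presence of oxygen the prolyl hydroxylases of the Egln family mark HIF-1α for destruction, so the mRNA and the protein of the α subunit need not move together. HIF-1 binds a short element in the promoters of most glycolytic genes and raises their transcription. The kinase PDK1 phosphorylates Akt downstream of phosphatidylinositol 3-kinase. PDK1 also activates related kinases independently of phosphatidylinositol 3-kinase. Both PDK1 and Akt are widely studied as inputs into glucose metabolism.

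There were 4 groups of 3 arrays, and the 3 arrays within a group were separate biological replicates. In the first experiment, Pdpk1-null CTL came from PDK1fl/fl mice with TamoxCre, the allele GT(ROSA)26tm9(creEsr1)Arte, which encodes a tamoxifen-regulated Cre recombinase, and Cre control CTL carried TamoxCre without floxed PDK1; both groups received 0.6 μM 4-hydroxytamoxifen (4OHT) for the last 72 h of culture. In the second experiment, AktI CTL from C57BL/6 mice received 1 μM AktI-1/2, an allosteric inhibitor of Akt, for the last 48 h, and wild type CTL were the untreated share of the same 3 cell preparations. All mice were C57BL/6. Every group started from splenic T cells that 2C11, an antibody to CD3, activated at 0.5 μg/ml for 48 h beside 20 ng/ml interleukin-2 (IL-2), after which the cells grew in IL-2 for 5 days. Cre acts in every cell that carries TamoxCre, and these were bulk cultures, in which fewer cells of a type and less RNA per cell cannot be told apart. The kinase PDK1 is the product of Pdpk1 and is a different protein from pyruvate dehydrogenase kinase 1, whose gene Pdk1 is among the genes described.

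All values are log2 signals, and a difference of 1 is a change of 2-fold. A gene is said to have risen or fallen where the adjusted p from limma was under 0.05 and the change at least 1.5-fold, and genes that passed the adjusted p with a smaller change are counted apart. Mean signals of 34 of the 36 genes stood above background in at least 1 group of each experiment, and those of Eno2 and Pdk2 did not. The 2 Pdpk1 probe sets had log2 differences of 0.05 and −0.04 between Pdpk1-null and Cre control arrays (adjusted p = 0.82 and 0.85), and since it is not known here whether they lie in the deleted part, they do not check the deletion. All 8 CTL markers were above background in every group and none passed the adjusted p in Pdpk1-null CTL. There 7 had negative log2 fold changes and 1 a positive one. Prf1 had −0.67 (adjusted p = 0.14, and 0.043 with the replicate number as a block), without overlap. Ifng had −0.95 (adjusted p = 0.30) and Il2ra −0.43 (adjusted p = 0.077). In AktI CTL the cytotoxic effector genes Prf1 (log2 fold change −2.20, adjusted p = 0.00016) and Ifng (−2.11, adjusted p = 0.00021) fell, and at less than 1.5-fold Gzmb was lower (−0.34, adjusted p = 0.019) and Cd8b1 higher (0.50, adjusted p = 0.0035).

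Among 20 markers of other cells none passed in Pdpk1-null CTL. Of 6 myeloid markers, the macrophage glycoprotein gene Cd68 fell in AktI CTL (−1.30, adjusted p = 0.0056). The AktI arrays lay entirely below the wild type arrays for 4 of the 6, beside 14.8% of all genes. Besides Cd68 these were Lyz2, Adgre1 and S100a8, whose means were below background in both AktI and wild type CTL. The mean signal of the 6 was 4.61 to 4.73 on Pdpk1-null arrays and 4.53 to 4.59 on Cre control arrays, and 4.72 to 4.81 on AktI arrays and 5.06 to 5.15 on wild type arrays. Above background were 3 of the 6 in Pdpk1-null CTL and 2 in each other group, Cd68 and the receptor gene Csf1r, while Itgam, Adgre1 and S100a8 were below it throughout. A probe set shared by the NK cell genes Klrb1c and Klrb1b was lower in AktI CTL at less than 1.5-fold (−0.51, adjusted p = 0.045) and had −0.59 in Pdpk1-null CTL (adjusted p = 0.10), without overlap in either. Of 5 B cell markers, the immunoglobulin gene Ighm stood far above background, with means of 9.61 in Pdpk1-null and 9.25 in Cre control CTL. Its means were 11.18 in AktI and 11.75 in wild type CTL. Ighm had −0.57 in AktI CTL, with overlap (adjusted p = 0.41, and 0.021 with the pair of AktI and wild type arrays as a block). In Pdpk1-null CTL it had 0.36 (adjusted p = 0.35), without overlap. Cd79b had 0.19 in Pdpk1-null CTL (adjusted p = 0.29) and 0.34 in AktI CTL (adjusted p = 0.072), without overlap in either. The other B cell markers overlapped in both experiments. The part of other cells in the results was not tested.

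Loss of PDK1 and inhibition of Akt each lowered few of these genes past the test. In Pdpk1-null CTL 1 of the 36 genes fell, the hexokinase gene Hk2, and none rose, against 0.357% of all genes that fell and 1.01% that rose. In AktI CTL 2 of the 36 fell, Ero1l and P4ha2, and none rose, against 1.03% of all genes that fell and 1.51% that rose. Without the 1.5-fold minimum the count in Pdpk1-null CTL stayed at 1 lower and 0 higher, beside 0.742% lower and 1.63% higher of all genes. In AktI CTL 7 genes were lower (Hk2, Pfkp, Slc16a3, Bnip3, Ankrd37, Ero1l and P4ha2) and 1 was higher (Hif1a), beside 2.94% and 3.66% of all genes. At an unadjusted p under 0.05, Pdpk1-null CTL had 11 genes lower and 3 higher, beside 9.04% and 8.22% of all genes. AktI CTL had 15 lower and 1 higher, beside 10.7% and 9.62%.

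Most of the genes lay slightly below their controls. The log2 fold change was negative for 27 of 36 genes in Pdpk1-null CTL, with a median of −0.14 beside −0.01 over all genes, and for 31 of 36 in AktI CTL, with a median of −0.15 beside −0.02 over all genes. The 3 Pdpk1-null arrays lay entirely below the 3 Cre control arrays for 12 of the 36 genes and entirely above for 5, while this held for 13.7% and 10.9% of all genes. The 3 AktI arrays lay entirely below the wild type arrays for 16 genes and entirely above for 1, beside 14.8% and 12.7% of all genes. These counts and medians describe a list drawn up with earlier results known, and no test was made over it. The values over all genes include genes below background. On each array 51.62% to 52.85% of tested probe sets stood above background, whereas 34 of the 36 genes did by group mean. Medians and shares over genes above background only were not computed.

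**Figure D1:**
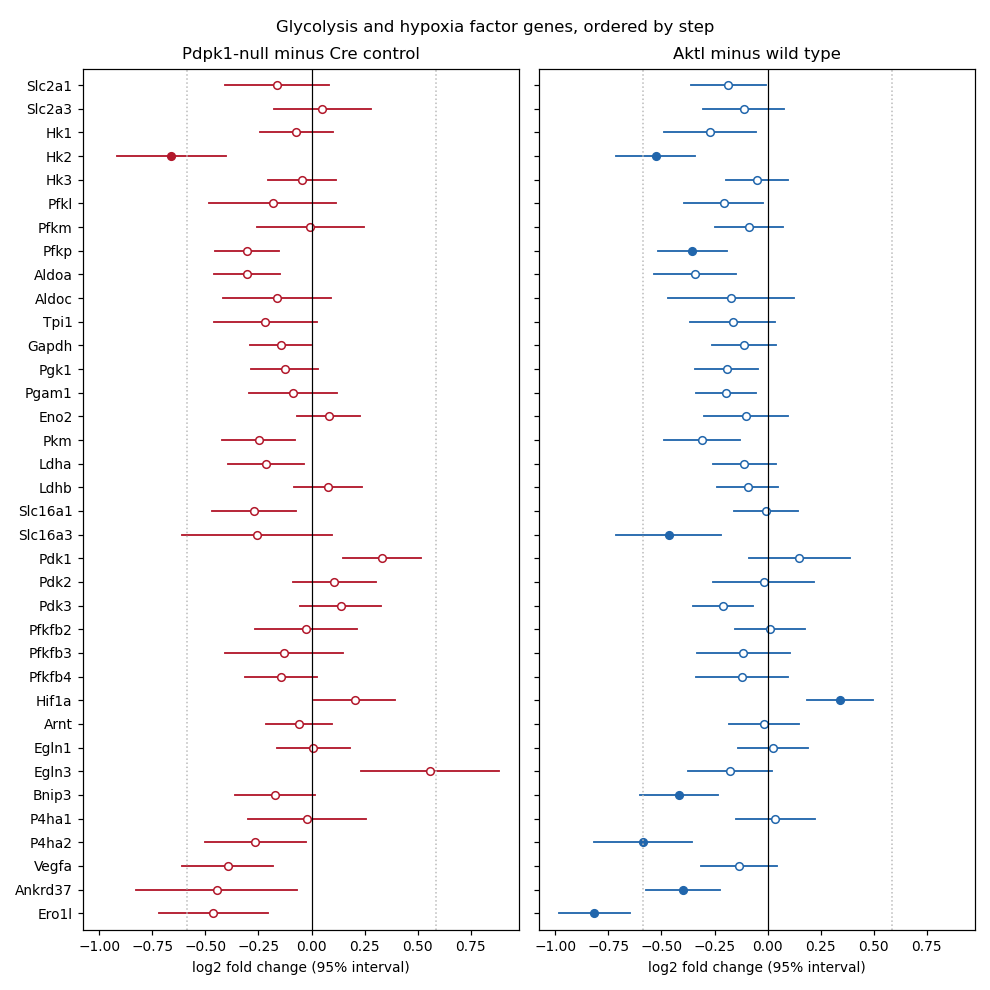
Log2 fold change of the 36 genes, from glucose transporters at the top to hypoxia-induced genes at the bottom, for Pdpk1-null minus Cre control (left, red) and AktI minus wild type (right, blue), n = 3 arrays per group. Bars are 95% intervals from limma, filled points passed an adjusted p under 0.05, and dotted lines mark 1.5-fold. Hk2 is the filled point on the left, and Ero1l, at −0.82, lies farthest left in the AktI panel.

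Glucose entry was examined through its 2 transporters. Slc2a1, which encodes the transporter GLUT1, read 9.48, 9.56 and 9.38 on Pdpk1-null arrays, against 9.55, 9.87 and 9.50 on Cre control arrays. It read 10.55, 10.36 and 10.40 on AktI arrays, against 10.68, 10.65 and 10.53 on wild type arrays. The groups overlapped in both experiments, and the log2 fold changes were −0.16 (95% interval −0.41 to 0.08) and −0.18 (−0.36 to −0.01). Slc2a3, which encodes the high-affinity transporter GLUT3, read 10.55, 10.79 and 10.70 on Pdpk1-null arrays and 10.45, 10.70 and 10.73 on Cre control arrays. It read 10.39, 10.33 and 10.53 on AktI arrays and 10.65, 10.45 and 10.49 on wild type arrays. Here too the groups overlapped, with log2 fold changes of 0.05 (−0.18 to 0.28) and −0.11 (−0.30 to 0.08), so that neither transporter passed and the intervals leave out a 1.5-fold change in either direction.

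The hexokinases trap glucose in the cell by phosphorylation, and of their 3 genes only Hk2 passed in either experiment. Hk2, which encodes the inducible hexokinase, read 9.07, 9.51 and 9.17 on Pdpk1-null arrays, against 9.86, 9.96 and 9.92 on Cre control arrays. It read 9.47, 9.31 and 9.52 on AktI arrays, against 10.06, 9.91 and 9.90 on wild type arrays. All arrays of Pdpk1-null and of AktI CTL lay below all arrays of their controls, the second Pdpk1-null array being the nearest. Hk2 was 1.58-fold lower in Pdpk1-null CTL (log2 fold change −0.66 ± 0.11 SE, adjusted p = 0.029) and 1.44-fold lower in AktI CTL (−0.53 ± 0.08 SE, adjusted p = 0.0081), below the 1.5-fold minimum. The difference between the 2 effects was −0.13 (adjusted p = 0.82). The fall in Pdpk1-null CTL did not pass in 5 of the 6 fits that left out 1 array, with log2 fold changes of −0.57 to −0.69 and adjusted p of 0.081 to 0.12, and passed without Pdpk1-null replicate 2. Hk1, the constitutive hexokinase, had log2 fold changes of −0.07 and −0.27 in Pdpk1-null and AktI CTL, and Hk3 −0.05 in each.

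The promoter of Hk2 is shown because this gene had the lowest adjusted p of the 36 genes in Pdpk1-null CTL. The RefSeq window runs from 250 bases before to 50 after the transcription start, here chr6:82774405-82774704 on the minus strand of GRCm38.p6, and capitals mark each match to the core of the hypoxia response element, ACGTG or GCGTG, on either strand.
Hk2: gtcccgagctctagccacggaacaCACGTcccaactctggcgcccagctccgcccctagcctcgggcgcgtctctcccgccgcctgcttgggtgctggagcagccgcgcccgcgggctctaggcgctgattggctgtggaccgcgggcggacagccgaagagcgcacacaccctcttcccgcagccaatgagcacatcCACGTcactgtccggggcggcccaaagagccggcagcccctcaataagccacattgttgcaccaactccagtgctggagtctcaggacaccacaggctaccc
It held 2 matches to ACGTG, both read on the opposite strand as CACGT.

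Upper glycolysis turns glucose 6-phosphate into triose phosphates. Pfkp encodes the platelet form of phosphofructokinase, the committed step, and read 10.07, 10.15 and 10.10 on Pdpk1-null arrays, against 10.36, 10.45 and 10.42 on Cre control arrays. It read 11.65, 11.60 and 11.58 on AktI arrays, against 12.07, 11.95 and 11.88 on wild type arrays. The groups did not overlap in either experiment. Pfkp was 1.28-fold lower in AktI CTL (log2 fold change −0.35 ± 0.07 SE, adjusted p = 0.026), and the value in Pdpk1-null CTL was −0.30 ± 0.07 SE (adjusted p = 0.063). A second probe set of Pfkp passed in AktI CTL at −0.42 (adjusted p = 0.014), and the third, at −0.33, had an adjusted p of 0.14. The AktI value of the first probe set passed in the fit without wild type replicate 3 and in no other fit that left out 1 array (adjusted p of 0.067 to 0.097).

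Aldoa, which encodes the main aldolase outside the liver, read 12.09, 12.13 and 12.05 on Pdpk1-null arrays, against 12.33, 12.46 and 12.39 on Cre control arrays. It read 13.38, 13.18 and 13.25 on AktI arrays, against 13.74, 13.52 and 13.56 on wild type arrays. The groups again did not overlap, the log2 fold changes being −0.30 (adjusted p = 0.074) and −0.34 (adjusted p = 0.060). With the pair as a block the AktI value passed the adjusted p (0.039), and all 5 Aldoa probe sets had negative values in both experiments. The other genes of the step, the phosphofructokinase genes Pfkl and Pfkm, the aldolase gene Aldoc and the triose phosphate isomerase gene Tpi1, lay between −0.22 and −0.01 in Pdpk1-null CTL and between −0.21 and −0.09 in AktI CTL, and none passed.

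Lower glycolysis, which regains ATP, held no gene that passed. The brightest probe set naming Gapdh, whose product oxidises glyceraldehyde 3-phosphate, and related loci read 13.31, 13.33 and 13.27 on Pdpk1-null arrays, against 13.44, 13.46 and 13.45 on Cre control arrays, and 14.15, 14.11 and 14.12 on AktI arrays, against 14.31, 14.18 and 14.22 on wild type arrays. These narrow groups did not overlap, and the log2 fold changes were −0.15 (adjusted p = 0.32) and −0.11 (adjusted p = 0.46). Pkm, which encodes the pyruvate kinase of most tissues, had −0.25 (adjusted p = 0.16) and −0.31 (adjusted p = 0.062), with groups that did not overlap in either experiment. The phosphoglycerate kinase gene Pgk1 had −0.13 and −0.19, and the phosphoglycerate mutase gene Pgam1 −0.09 and −0.20. Eno2, the neuronal enolase gene, was below background in every group.

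Lactate leaves the cell through monocarboxylate transporters after lactate dehydrogenase has reduced pyruvate. Ldha, which encodes the form that favours lactate production, read 12.29, 12.33 and 12.14 on Pdpk1-null arrays, against 12.39, 12.51 and 12.50 on Cre control arrays, and 13.73, 13.65 and 13.66 on AktI arrays, against 13.84, 13.76 and 13.77 on wild type arrays. All arrays lay below those of their controls, at log2 fold changes of −0.22 (adjusted p = 0.24) and −0.11 (adjusted p = 0.45). Ldhb, the form of oxidative tissues, had 0.08 and −0.09. Slc16a3, which encodes the lactate exporter MCT4, read 7.51, 7.53 and 7.31 on AktI arrays, against 8.14, 7.75 and 7.86 on wild type arrays, with no overlap. It was 1.38-fold lower in AktI CTL (−0.47 ± 0.11 SE, adjusted p = 0.047), and in Pdpk1-null CTL it read 5.87, 5.81 and 5.84, against 5.76, 6.47 and 6.05 on Cre control arrays, which overlapped (−0.26, adjusted p = 0.50). The AktI value of Slc16a3 passed in the fit without wild type replicate 2 and in none of the other 5 that left out 1 array (−0.36 to −0.51, adjusted p of 0.095 to 0.15), nor in 1 model on all 12 arrays (adjusted p = 0.088). Slc16a1, which encodes the related transporter MCT1, had −0.27 in Pdpk1-null CTL (adjusted p = 0.18, no overlap) and −0.01 in AktI CTL (95% interval −0.16 to 0.14).

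The pyruvate dehydrogenase kinases close the entry of pyruvate into the citric acid cycle. Pdk1, listed here as a HIF-1 target, read 9.35, 9.18 and 9.30 on Pdpk1-null arrays, against 9.01, 8.98 and 8.84 on Cre control arrays. It read 10.55, 10.46 and 10.30 on AktI arrays, against 10.18, 10.49 and 10.19 on wild type arrays. The Pdpk1-null arrays all lay above the Cre control arrays, while those of the Akt experiment overlapped, at log2 fold changes of 0.33 (adjusted p = 0.088) and 0.15 (adjusted p = 0.53). Another Pdk1 probe set read 8.20, 8.09 and 7.93 on AktI arrays, against 7.54, 7.44 and 7.30 on wild type arrays, and rose (0.65 ± 0.09 SE, adjusted p = 0.0057); it had 0.35 in Pdpk1-null CTL (adjusted p = 0.24). The 4 Pdk1 probe sets had positive values in both experiments, so they shared a direction and differed in size. Pdk3 had 0.14 in Pdpk1-null CTL and −0.21 in AktI CTL (adjusted p = 0.11, no overlap), and Pdk2 was below background in every group.

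The bifunctional enzymes encoded by Pfkfb2, Pfkfb3 and Pfkfb4 set the level of fructose 2,6-bisphosphate, an activator of phosphofructokinase. Pfkfb2 read 6.01, 5.72 and 5.61 on Pdpk1-null arrays and 5.86, 5.82 and 5.75 on Cre control arrays, and 6.34, 6.45 and 6.38 on AktI arrays and 6.32, 6.33 and 6.48 on wild type arrays. These values overlapped, with log2 fold changes of −0.03 and 0.01. Pfkfb3 had −0.13 and −0.11 and Pfkfb4 −0.14 and −0.12 in Pdpk1-null and AktI CTL, with overlapping groups.

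The gene of the hypoxia factor itself went the other way from most of the list. Hif1a read 12.40, 12.41 and 12.30 on AktI arrays, against 12.08, 12.05 and 11.96 on wild type arrays, so that all AktI arrays lay above. It was 1.27-fold higher in AktI CTL (log2 fold change 0.34 ± 0.07 SE, adjusted p = 0.025), and higher by 0.32, 0.37 and 0.34 in the 3 pairs of AktI and wild type arrays. In Pdpk1-null CTL it read 11.23, 11.03 and 11.27, against 10.99, 11.03 and 10.91 on Cre control arrays. These lay above without overlap, by very little for the second Pdpk1-null array, at 0.20 ± 0.08 SE (adjusted p = 0.30). Of the 3 other Hif1a probe sets, 2 passed in AktI CTL (0.50, adjusted p = 0.0097, and 0.42, adjusted p = 0.019) and none in Pdpk1-null CTL (0.04 to 0.28). The Hif1a value in AktI CTL did not pass in 5 of the 6 fits that left out 1 array (0.31 to 0.37, adjusted p of 0.051 to 0.10); it passed without AktI replicate 3.

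**Figure D2:**
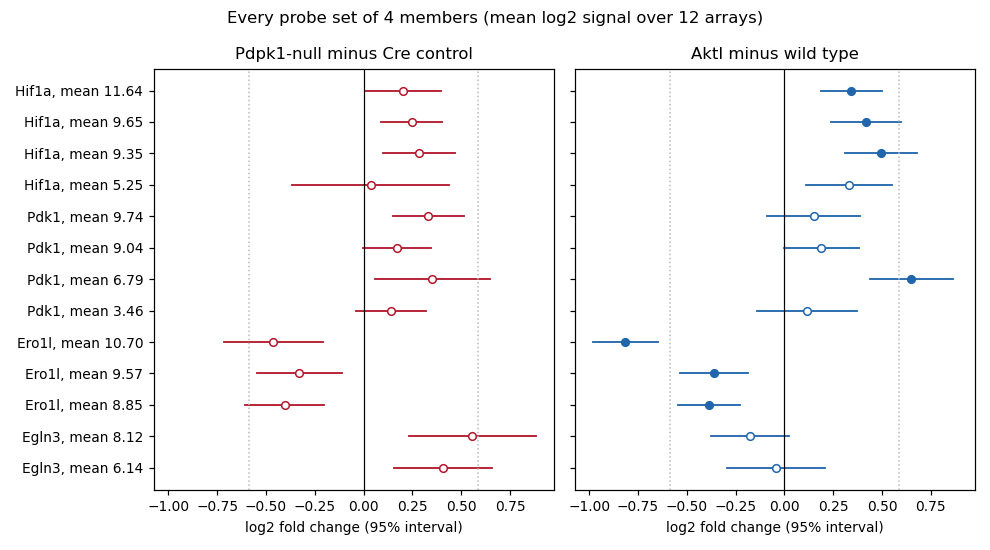
Log2 fold change of every probe set of Hif1a, Pdk1, Ero1l and Egln3, each named with its mean log2 signal over the 12 arrays, for Pdpk1-null minus Cre control (left, red) and AktI minus wild type (right, blue), with 95% intervals, filled points for an adjusted p under 0.05 and dotted lines at 1.5-fold. All 4 Hif1a and all 4 Pdk1 probe sets lie right of 0 on both sides, and all 3 Ero1l probe sets lie left of it.

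The other parts of the oxygen-sensing system did not pass. Arnt, the β subunit, had log2 fold changes of −0.06 (95% interval −0.21 to 0.10) in Pdpk1-null CTL and −0.02 (−0.18 to 0.15) in AktI CTL. The prolyl hydroxylase gene Egln1 had 0.01 (−0.16 to 0.18) and 0.03 (−0.14 to 0.19). Egln3, a prolyl hydroxylase gene that HIF-1 itself induces, read 8.17, 7.82 and 7.78 on Pdpk1-null arrays, against 7.21, 7.65 and 7.25 on Cre control arrays, and 8.53, 8.40 and 8.62 on AktI arrays, against 8.79, 8.73 and 8.56 on wild type arrays. All Pdpk1-null arrays lay above all Cre control arrays, whereas AktI and wild type arrays overlapped. The log2 fold changes were 0.56 ± 0.14 SE (adjusted p = 0.10) and −0.18 ± 0.09 SE (adjusted p = 0.34), and both Egln3 probe sets had these signs.

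By the probe sets that represent them, 2 genes changed by at least 1.5-fold in AktI CTL, the hypoxia-induced genes Ero1l and P4ha2. Ero1l (current symbol Ero1a) encodes the oxidase that drives disulphide bond formation in the endoplasmic reticulum. Ero1l read 10.11, 10.07 and 10.22 on AktI arrays, against 10.99, 10.87 and 10.98 on wild type arrays. It was 1.76-fold lower (log2 fold change −0.82 ± 0.07 SE, adjusted p = 0.00057), with a wide gap between the groups and a difference of −0.88, −0.80 and −0.76 in the 3 pairs. In Pdpk1-null CTL it read 10.39, 10.79 and 10.71, against 11.01, 11.20 and 11.07 on Cre control arrays, lower on every array at −0.46 ± 0.11 SE (adjusted p = 0.088). The 2 other Ero1l probe sets passed the adjusted p in AktI CTL with smaller values, −0.39 (adjusted p = 0.017) and −0.36 (adjusted p = 0.032), and the mean of the 3 was −0.52 (adjusted p = 0.0020), under the 1.5-fold minimum. The size of the Ero1l change therefore differed between its probe sets, and the direction did not.

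P4ha2, which encodes a subunit of collagen prolyl 4-hydroxylase, read 4.76, 5.09 and 5.11 on AktI arrays, against 5.52, 5.55 and 5.66 on wild type arrays. The AktI signals stood about the background level of that experiment (4.99), 2 of the 3 above it, and those of wild type arrays above it. The measured difference in AktI CTL was −0.59 ± 0.10 SE (adjusted p = 0.014), at the edge of the 1.5-fold minimum. The AktI array below background was also set to that level, a choice made after the data were seen. P4ha2 was then 1.42-fold lower, a point estimate without an interval and under the minimum. P4ha2 also lost the call without wild type replicate 3 (−0.55, adjusted p = 0.052) or AktI replicate 1 (−0.47, adjusted p = 0.024). In Pdpk1-null CTL it read 4.87, 4.60 and 4.55, against 4.80, 5.04 and 4.96 on Cre control arrays, which overlapped (−0.26, adjusted p = 0.28). P4ha1, the gene of the related subunit, had −0.02 and 0.04 in Pdpk1-null and AktI CTL.

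Bnip3, which encodes a mitochondrial protein of mitophagy, read 11.64, 11.43 and 11.56 on AktI arrays, against 12.01, 11.87 and 12.02 on wild type arrays. With no overlap it was 1.34-fold lower in AktI CTL (−0.42 ± 0.08 SE, adjusted p = 0.022), and in Pdpk1-null CTL it read 10.38, 10.40 and 10.29, against 10.41, 10.66 and 10.52 on Cre control arrays (−0.17, adjusted p = 0.38). Ankrd37, an ankyrin repeat gene induced by hypoxia, read 6.95, 7.04 and 7.05 on AktI arrays, against 7.47, 7.47 and 7.29 on wild type arrays. It too was lower without overlap, by 1.32-fold (−0.40 ± 0.08 SE, adjusted p = 0.021). On Pdpk1-null arrays Ankrd37 read 5.99, 5.85 and 5.68, against 6.11, 6.69 and 6.05 on Cre control arrays, the second of which was far above the others (−0.45 ± 0.17 SE, adjusted p = 0.25). Left-out arrays ended the AktI result of Bnip3 (without AktI replicate 2 or 3 or wild type replicate 1 or 3, adjusted p of 0.064 to 0.083) and that of Ankrd37 (without any array but wild type replicate 3, adjusted p of 0.054 to 0.082), and 1 model on all 12 arrays also ended that of Ankrd37 (adjusted p = 0.13). Vegfa, which encodes the vascular growth factor, read 5.38, 5.59 and 5.43 on Pdpk1-null arrays, against 5.75, 6.02 and 5.82 on Cre control arrays. These did not overlap (−0.40 ± 0.09 SE, adjusted p = 0.083), and in AktI CTL the log2 fold change was −0.13 (adjusted p = 0.44).

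**Figure D3:**
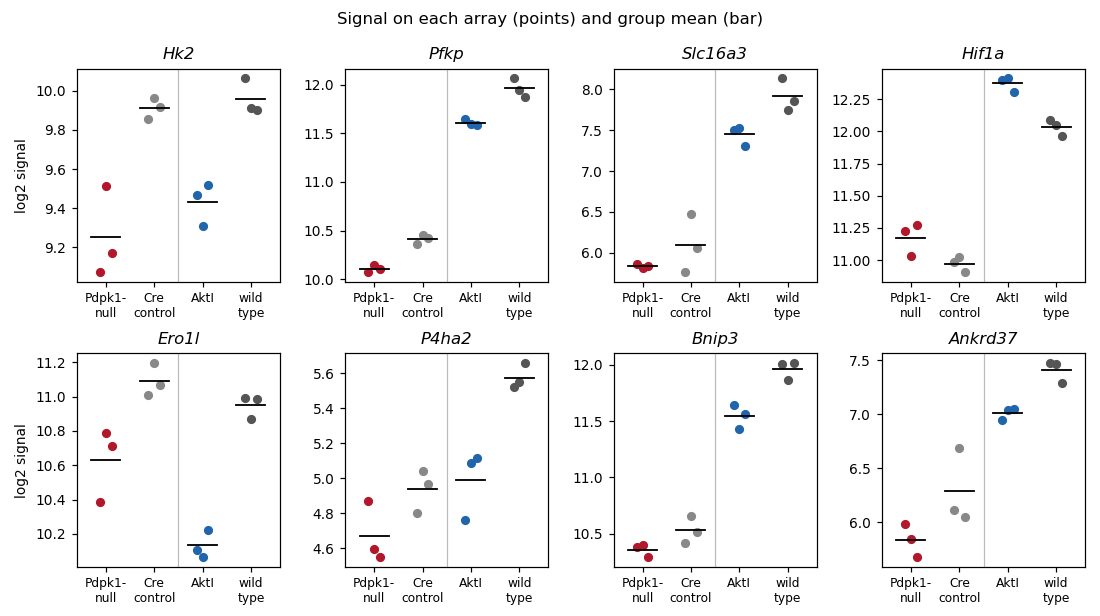
Log2 signal of the 8 genes that passed an adjusted p under 0.05 in either experiment, 1 point per array and a bar at the mean of 3, with Pdpk1-null left of Cre control and AktI left of wild type in each panel. The vertical line parts experiments that were taken as normalized separately, so levels are compared only within each side. AktI arrays lie below wild type arrays in 7 panels and above in the panel of Hif1a.

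The promoter windows of the genes that fell in AktI CTL are shown with that of Ldha, which did not pass and held the most matches of any window of these genes. Their GRCm38.p6 positions are chr14:45318523-45318822 on the minus strand (Ero1l), chr11:54100674-54100973 on the plus strand (P4ha2) and chr7:46845554-46845853 on the plus strand (Ldha). Capitals mark ACGTG or GCGTG on either strand as before.
Ero1l: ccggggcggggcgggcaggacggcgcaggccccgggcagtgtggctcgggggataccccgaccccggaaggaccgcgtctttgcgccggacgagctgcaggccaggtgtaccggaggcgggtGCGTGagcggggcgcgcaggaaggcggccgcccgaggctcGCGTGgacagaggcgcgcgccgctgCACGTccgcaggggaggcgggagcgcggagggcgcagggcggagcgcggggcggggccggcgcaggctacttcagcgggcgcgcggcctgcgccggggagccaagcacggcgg
P4ha2: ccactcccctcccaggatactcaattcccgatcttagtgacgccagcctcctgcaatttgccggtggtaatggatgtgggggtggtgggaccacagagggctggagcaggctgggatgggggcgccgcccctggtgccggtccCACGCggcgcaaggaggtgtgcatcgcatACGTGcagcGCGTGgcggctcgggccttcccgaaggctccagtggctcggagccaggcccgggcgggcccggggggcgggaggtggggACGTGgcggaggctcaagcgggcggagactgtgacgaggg
Ldha: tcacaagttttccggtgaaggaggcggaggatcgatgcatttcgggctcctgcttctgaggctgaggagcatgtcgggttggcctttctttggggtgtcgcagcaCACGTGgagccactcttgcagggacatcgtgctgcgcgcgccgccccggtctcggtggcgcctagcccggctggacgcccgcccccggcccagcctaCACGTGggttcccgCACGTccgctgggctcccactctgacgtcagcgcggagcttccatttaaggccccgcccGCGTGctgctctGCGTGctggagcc
Ero1l held 3 matches, P4ha2 4 and Ldha 7, of which 4 come from the E-boxes described next.

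Of the 35 genes with a RefSeq promoter, 33 (94.3%) held the core ACGTG or GCGTG in at least 1 window. Among all 27025 genes of the table the share was 46.7%. By window it stood in 41 of 50 (82.0%), against 43.8% of 32851. The core was held by 24 of 26 known HIF-1 targets (92.3%) and by 9 of the 9 other genes (100%), so it did not set the targets apart. The E-box CACGTG, the motif of Myc and of several other factors, contains ACGTG on both strands and so adds 2 matches to the cores. The E-box stood in windows of 8 of the 35 genes (22.9%), against 8.09% of all genes. These were 3 of the 26 HIF-1 targets (11.5%) and 5 of the 9 others (55.6%). No window was found for Slc2a3. A match describes the letters of the window and is no evidence of binding.

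The 36 genes were also divided into 27 listed from general knowledge as HIF-1 targets and 9 others that were not so listed. Of the 27, 1 fell in Pdpk1-null CTL, beside 0.357% of all genes, and 22 had negative log2 fold changes, with a median of −0.16. In AktI CTL 2 of the 27 fell, 7 passed the adjusted p in that direction, and 24 were negative, with a median of −0.18, beside 1.03% and 2.94% of all genes for the first 2 counts. The 9 others, which include Hif1a, Arnt, Slc16a1 and Ldhb, had medians of −0.01 and −0.02, with 5 of the 9 negative in Pdpk1-null CTL and 7 of the 9 in AktI CTL. Over all genes 52.9% were negative in Pdpk1-null CTL and 55.0% in AktI CTL.

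The shift could be followed on each array. Relative to the mean of the Cre control arrays, the median of the 36 genes was −0.07, −0.12 and −0.21 on the Pdpk1-null arrays and −0.08, 0.06 and −0.01 on the Cre control arrays. The first Cre control array was as low as the first Pdpk1-null array, so these 2 groups overlapped on this measure. Relative to the mean of the wild type arrays, the median was −0.13, −0.21 and −0.13 on the AktI arrays and 0.06, −0.03 and −0.02 on the wild type arrays, with no overlap. Over all genes the median was −0.02 to 0.00 on every array.

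**Figure D4:**
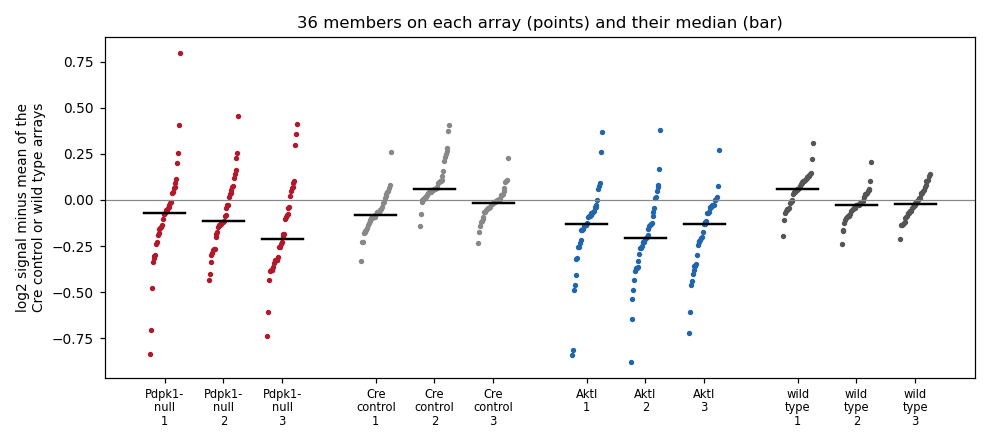
Log2 signal of the 36 genes on each of the 12 arrays, minus the mean of the Cre control arrays (Pdpk1-null and Cre control) or of the wild type arrays (AktI and wild type); each point is 1 gene, sorted by value, and the bar is the median. The AktI medians, from −0.21 to −0.13, lie below all wild type medians, and those of Pdpk1-null and Cre control overlap.

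The effects of PDK1 loss and Akt inhibition were compared directly, since the experiments share no arrays. None of the 36 genes passed the limma test of the difference between the 2 log2 fold changes, against 0.522% of all genes. An unadjusted p under 0.05 was found for 4 of the 36 (11.1%), the same share as among all genes (11.1%): Egln3 (0.73, adjusted p = 0.12), Ero1l (0.35, adjusted p = 0.38), Pdk3 (0.35, adjusted p = 0.21) and Slc16a1 (−0.26, adjusted p = 0.41), each as the Pdpk1-null effect minus the AktI effect. Egln3 passed without Cre control replicate 2 (0.87, adjusted p = 0.038). Both effects had the same sign for 28 of the 36 genes (77.8%) and for 61.2% of all genes. As a description across genes, which are not independent replicates and share the array platform and the probe sets, Pearson's r of the 2 effects was 0.64 over the 36 genes and 0.53 over 18193 genes.

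**Figure D5:**
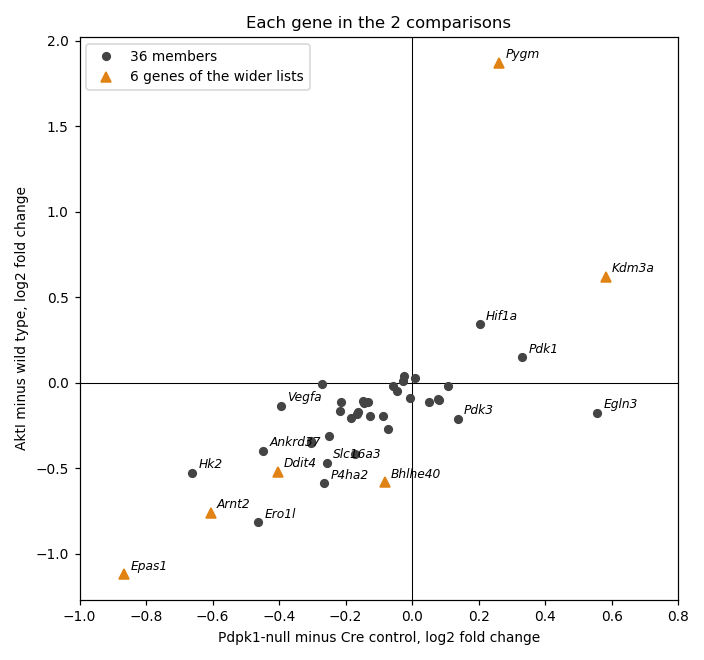
Log2 fold change of each gene in Pdpk1-null minus Cre control (x axis) and AktI minus wild type (y axis): black circles are the 36 genes and orange triangles 6 genes of the wider lists. Most circles lie at the lower left, Hk2 and Ero1l farthest out, and Egln3 stands apart at the right, at 0.56 and −0.18.

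Among 8 further factors of the HIF pathway, Epas1, which encodes HIF-2α, fell in both experiments. It read 7.85, 8.03 and 8.38 on Pdpk1-null arrays, against 8.78, 9.25 and 8.82 on Cre control arrays. It read 5.52, 5.29 and 6.02 on AktI arrays, against 6.51, 6.43 and 7.25 on wild type arrays. Without overlap in either experiment, Epas1 was 1.82-fold lower in Pdpk1-null CTL (−0.86 ± 0.16 SE, adjusted p = 0.041) and 2.17-fold lower in AktI CTL (−1.12 ± 0.24 SE, adjusted p = 0.033). The call was lost in 5 of 6 fits without 1 array in Pdpk1-null CTL (adjusted p of 0.075 to 0.12), where it passed without replicate 3 of that group, and in AktI CTL without AktI replicate 1 or 2 or wild type replicate 1 or 3 (adjusted p of 0.059 to 0.11) or with the mean of the 2 Epas1 probe sets (−0.72, adjusted p = 0.059). Arnt2, a relative of Arnt, had −0.61 (adjusted p = 0.066) and −0.76 (adjusted p = 0.058, and 0.0074 with the pair as a block, where it fell). The coactivator genes Cited2 (0.47, adjusted p = 0.037) and Ep300 (0.37, adjusted p = 0.022) were higher in AktI CTL at less than 1.5-fold, results that of the 6 fits without 1 array only that without wild type replicate 2 kept. Hif3a, Egln2, Vhl and Hif1an did not pass.

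Of 20 further hypoxia-induced genes, none fell or rose in Pdpk1-null CTL and 1 rose in AktI CTL, where 1.51% of all genes rose. Kdm3a, which encodes a histone demethylase, read 10.70, 10.52 and 10.45 on AktI arrays, against 9.98, 9.96 and 9.87 on wild type arrays. It rose 1.54-fold in AktI CTL (0.62 ± 0.08 SE, adjusted p = 0.0040). It read 9.56, 9.62 and 9.77 on Pdpk1-null arrays, against 9.01, 8.94 and 9.26 on Cre control arrays, higher without overlap and just under the 1.5-fold minimum (0.58 ± 0.10 SE, adjusted p = 0.031). The AktI change fell under the minimum without AktI replicate 1 (0.55) or wild type replicate 3 (0.58), still past the adjusted p, and the Pdpk1-null value missed the adjusted p without Cre control replicate 1 or 2 or Pdpk1-null replicate 1 or 3 (0.065 to 0.12). Ddit4, which encodes an inhibitor of the kinase mTORC1, was lower in both at less than 1.5-fold, by −0.40 in Pdpk1-null CTL (adjusted p = 0.047) and −0.52 in AktI CTL (adjusted p = 0.0042). In AktI CTL the repressor gene Bhlhe40 (−0.58, adjusted p = 0.0052), the lipid droplet gene Hilpda (−0.41, adjusted p = 0.031) and the carbonic anhydrase gene Car9 (−0.32, adjusted p = 0.027) were lower and Mxi1, which encodes a Myc antagonist, was higher (0.37, adjusted p = 0.034), all at less than 1.5-fold. With the pair as a block Car9 did not pass (adjusted p = 0.053). Leaving out any 1 array ended the results of Ddit4 in Pdpk1-null CTL (adjusted p of 0.070 to 0.17) and of Car9 (0.067 to 0.10), and any but 1 those of Mxi1 and Hilpda, which passed without wild type replicate 3 and AktI replicate 3 in that order; Ddit4 and Bhlhe40 kept theirs in AktI CTL. Hypoxia-induced genes thus lay on both sides of 0, with medians of −0.11 in Pdpk1-null and −0.07 in AktI CTL over the 20, of which the glycogen synthase gene Gys1 is also counted with glycogen metabolism.

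The neighbouring pathways held few changes. Of 12 genes of glycogen metabolism and gluconeogenesis, Pygm, which encodes the muscle form of glycogen phosphorylase, rose in AktI CTL, and none passed in Pdpk1-null CTL, where the liver form Pygl had 0.74 (adjusted p = 0.089). Pygm read 6.26, 6.80 and 6.73 on AktI arrays, against 4.52, 4.87 and 4.78 on wild type arrays, which were at the background level (1.87 ± 0.15 SE, adjusted p = 0.00033). Among 5 glucose-sensing genes Mlx, the partner of the carbohydrate-response factors, was lower in AktI CTL at less than 1.5-fold (−0.32, adjusted p = 0.023, and 0.051 to 0.097 without any 1 array), and in Pdpk1-null CTL the lowest p-values were those of Mlxipl (0.36) and Arrdc4 (−0.45). Of 10 other isoforms of glycolytic enzymes and transporters, the transporter gene Slc2a6 was higher in AktI CTL at less than 1.5-fold (0.56, adjusted p = 0.039, and past it without AktI replicate 3 alone), and in Pdpk1-null CTL the lowest p-values were those of Pgam2 (−0.24) and Slc2a6 (0.44). None of 6 genes of the pentose phosphate pathway passed, the lowest p-values belonging to Pgd (−0.24) and Rpia (−0.21) in Pdpk1-null CTL and to Rpe (−0.27) and Pgls (0.23) in AktI CTL. None of 8 genes of pyruvate entry into mitochondria passed, with Dlat (−0.36) and Pdhx (−0.21) lowest in p in Pdpk1-null CTL and Pdp1 (−0.24) and Mpc1 (0.21) in AktI CTL.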

How the data were processed

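RNA of CTL was hybridised to 12 Affymetrix mouse arrays, 3 per group. The deposited values are log2 signals, which the authors obtained with Affymetrix Expression Console 1.1 (named in the submitters' processing notes) by the robust multichip average; they entered the tests unchanged. The 2 experiments were taken as normalized separately, so effects and not levels were compared between them. The number of arrays limits the precision, and an exact permutation of 3 against 3 cannot go below p = 0.1.

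Of 45101 probe sets 64 controls were left out and 45037 tested. Genes came from a platform annotation: 34945 tested probe sets name 1 gene, 932 several and 9160 none. Gapdh, Bnip3l, Hbb-b1 and Klrb1c were read from probe sets that also name related loci, since none names them alone, and are counted in their lists. Each comparison was fitted on its own 6 arrays with lmFit and eBayes of limma 3.58.1 in R 4.3.3, with Benjamini-Hochberg adjustment over the tested probe sets. The effects were set against each other by an interaction term fitted over 12 arrays. Percentages of all genes count 18193 genes, with those below background included. Background is the 95th percentile of 80 olfactory and vomeronasal receptor probe sets, 4.45 in the Pdpk1 experiment and 4.99 in the Akt experiment. On simulated data over 45037 probe sets, known changes were set in probe sets above background only. The fit recovered 76.1% of 1.75-fold changes in the Pdpk1 design and 83.6% in the Akt design (67 probe sets each). Recovery in dimmer probe sets was not simulated.

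AktI and wild type arrays of 1 number are shares of the same cells per the labels (correlation of their deviations 0.03 to 0.17); Pdpk1-null and Cre control arrays share only a number. Alternatives were a replicate block, trend and robust settings, quantile normalization, equal medians, a filter on dim probe sets, the mean or the lowest-p probe set of a gene, 1 model of 12 arrays, a 2-fold minimum and leaving out each array. The genes and lists, and HIF-1 targets and motifs, were chosen with earlier results of these data known. All genes of the list are named, with array values where they passed or came first in their step; from the wider lists those that passed are named, or the 2 with the lowest p. Promoter sequences are those of RefSeq on GRCm38.p6.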

Additional observations from a re-analysis of the deposited data

Results flagged for a closer look

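The rise of the glycogen phosphorylase gene Pygm differed between the experiments by the limma interaction test. Its Pdpk1-null effect minus its AktI effect was −1.61 on the log2 scale (adjusted p = 0.0011), from 0.26 in Pdpk1-null CTL (adjusted p = 0.17) and 1.87 in AktI CTL (adjusted p = 0.00033). It was the sole gene among the 36 and the wider lists whose difference passed with at least 1.5-fold. Pygm lay near background in the 3 other groups, and what underlies the difference was not tested.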

How the results depend on the processing

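No gene of the 36 that passed the adjusted p changed direction under any alternative. Counts moved with the setting. In Pdpk1-null CTL, 1 gene passed the adjusted p at any fold, against 8 with trend and robust settings, 6 with 1 model on all 12 arrays, 5 with dim probe sets left out and 4 with the mean of the probe sets of a gene; leaving out 1 array gave 0 to 1, as it did for genes past 1.5-fold. In AktI CTL, 8 passed at any fold, against 13 with trend and robust settings, and leaving out 1 array gave 3 to 5. Genes past 1.5-fold in AktI CTL numbered 1 with equal medians, where P4ha2 was lost, and 1 with the mean of the probe sets, where Ero1l was lost, and 1 to 2 when 1 array was left out. The lowest-p probe set of a gene added Pdk1, which rose in AktI CTL (0.65, adjusted p = 0.0057). A minimum of 2-fold left 0 in both experiments. In 1 model on all 12 arrays the AktI results of Slc16a3 and Ankrd37 were lost, and in the wider lists those of Car9, Cited2, Hilpda and Slc2a6 (adjusted p of 0.056 to 0.081). For the difference of the effects, leaving out 1 array gave 0 to 1 (Egln3). With the replicate block, which for AktI is the shared cell preparation, 1 gene passed in Pdpk1-null CTL, 2 fell in AktI CTL and 9 passed at any fold, Aldoa being added; it ended no call among the 36. In the wider lists the block, where Pdpk1 replicates share only a number, ended the Pdpk1-null results of Epas1 (adjusted p = 0.054) and Ddit4 (adjusted p = 0.061). Medians of the 36 stayed between −0.18 and −0.08 when 1 array was left out. With 3 arrays per group, changes under 1.5-fold in signals near background are the least secure.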
